A study of Mus musculus with 46 samples.

Results

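TRBJ1-4, TRBJ1-5 and TRBJ1-7 are the 3 rarest of the 13 joining (J) segments seen in these T cell receptor beta (TCRβ) rearrangements, and each is described apart. Their rearrangements were all those whose deposited J assignment was 1 of the 3 names. Of 153913 rearrangements in 17 libraries, 632 carried TRBJ1-4 (0.411%), 1535 carried TRBJ1-5 (0.997%) and 134 carried TRBJ1-7 (0.0871%). Each of the other 10 J segments had between 6778 and 29903 rearrangements (4.40% to 19.4%). The 3 segments were selected on their low shares of rearrangements and reads in these libraries, so their rank and levels are a description and carry no test.

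The libraries were made from genomic DNA of mouse T cells, and they belong to a study of pregnancy and experimental autoimmune encephalomyelitis (EAE), an induced model of multiple sclerosis. In non-pregnant C57BL/6 WT mice with EAE, cells labelled CD8-T cells were taken from the CNS (central nervous system, n = 3) and from the periphery, which was spleen and lymph nodes (n = 3). That label can be read as CD8-negative T cells or as CD8 T cells, and nothing in the tables settles which. DEREG mice, in which Foxp3 control sequences drive a transgenic reporter, gave Foxp3+ regulatory T cells (Treg) and Foxp3- conventional T cells (Tcon), both CD4+ and both from the same peripheral organs. Treg of EAE mice at embryonic day 18 (E18) gave 5 libraries, while Treg of EAE non-pregnant mice, Treg of naive non-pregnant mice, Tcon of EAE E18 mice, Tcon of EAE non-pregnant mice, Tcon of naive E18 mice and Tcon of naive non-pregnant mice gave 1 library each. The labels give neither the ages of the mice nor whether cells of several animals were pooled. Libraries held 278420 to 571124 reads over 1698 to 19898 rearrangements, and 15.3% to 53.9% of a library's rearrangements had 1 read. The tables hold DNA rearrangements and no expression, so the labelled cell types could not be set against marker genes. The number of cells per library is not given, so more cells of a clone and stronger amplification of it cannot be told apart in read numbers. Reads came from PCR without molecular identifiers, and the intervals given here (Wilson, 95%) cover counting error only.

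A TCRβ chain is assembled in developing T cells by joining a diversity (D) segment to a J segment and then a variable (V) segment to both. The D and J segments lie in 2 clusters, TRBD1 with the TRBJ1 segments and downstream TRBD2 with the TRBJ2 segments, and TRBD1 can join to J segments of either cluster. The third complementarity-determining region (CDR3) spans the junction from a conserved cysteine at the end of V to a phenylalanine or tryptophan in J, and bases without a template are inserted at the joints. The 3 segments sit in the downstream part of cluster 1 on mouse chromosome 6 in GRCm38.p6 (the same build as mm10). Trbj1-4 lies at chr6:41534811-41534861 and is 51 bases long, Trbj1-5 lies at chr6:41535084-41535133 and is 50 bases long, and Trbj1-7 lies at chr6:41535642-41535687 and is 46 bases long. Each is annotated as a J segment. Trbj1-6, at chr6:41535554-41535606, ends 35 bases before Trbj1-7.

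For each segment, the CDR3 with the largest share of reads in any library and the CDR3 found in most libraries are shown 5′ to 3′ as deposited, with the bases assigned to the J segment in capitals, so that the 3 J ends can be compared:
TRBJ1-4, largest share, with TRBV24: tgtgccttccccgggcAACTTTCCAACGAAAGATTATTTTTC
TRBJ1-4, most libraries, with TRBV13-2: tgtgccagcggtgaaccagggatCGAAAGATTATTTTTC
TRBJ1-5, largest share, with TRBV20: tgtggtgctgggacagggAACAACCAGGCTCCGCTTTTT
TRBJ1-5, most libraries, with TRBV13-2: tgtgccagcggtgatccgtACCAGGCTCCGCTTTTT
TRBJ1-7, largest share, with TRBV15: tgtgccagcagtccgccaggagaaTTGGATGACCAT
TRBJ1-7, most libraries, with TRBV20: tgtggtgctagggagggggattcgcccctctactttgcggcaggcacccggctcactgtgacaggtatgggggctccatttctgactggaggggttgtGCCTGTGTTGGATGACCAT
The TRBJ1-4 and TRBJ1-5 CDR3s end in phenylalanine codons, while both TRBJ1-7 CDR3s end in a histidine codon. The second TRBJ1-7 CDR3 is 117 bases long, against 36 to 42 bases for the other 5.

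TRBJ1-4 and TRBJ1-5 rearrangements each had a CDR3 end of their own. These ends were read from the deposited CDR3s and not from a reference sequence, so they describe the assignments and do not check them. The last 10 bases ATTATTTTTC closed 625 of 632 TRBJ1-4 rearrangements and no rearrangement of another J segment. The last 10 bases TCCGCTTTTT closed 1467 of 1535 TRBJ1-5 rearrangements (95.6%) and no rearrangement of another J segment. The median CDR3 length was 42 nucleotides for both, and the other 10 J segments had medians of 39 to 45 nucleotides.

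TRBJ1-4 was present in every library and small in every library. Its 632 rearrangements held 2222 reads, a mean of 3.52 reads each, whereas the other 10 J segments had pooled means of 25.9 to 63.5 reads. Within a library its reads per rearrangement ran between 1.78 and 10 with a median of 3.24, and they were below the mean of the other 10 J segments in 17 of 17 libraries, at 0.0408 to 0.151 of it. Rearrangements with 1 read made up 46.0% of TRBJ1-4 rearrangements, against 22.7% to 29.9% for the other J segments. The largest TRBJ1-4 rearrangement of the series, the TRBV24 one printed above, had 72 reads in CNS replicate 1 (0.0211% of that library's reads). The largest rearrangement of each of the other 10 J segments had between 4539 and 129281 reads.

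**Figure D1:**
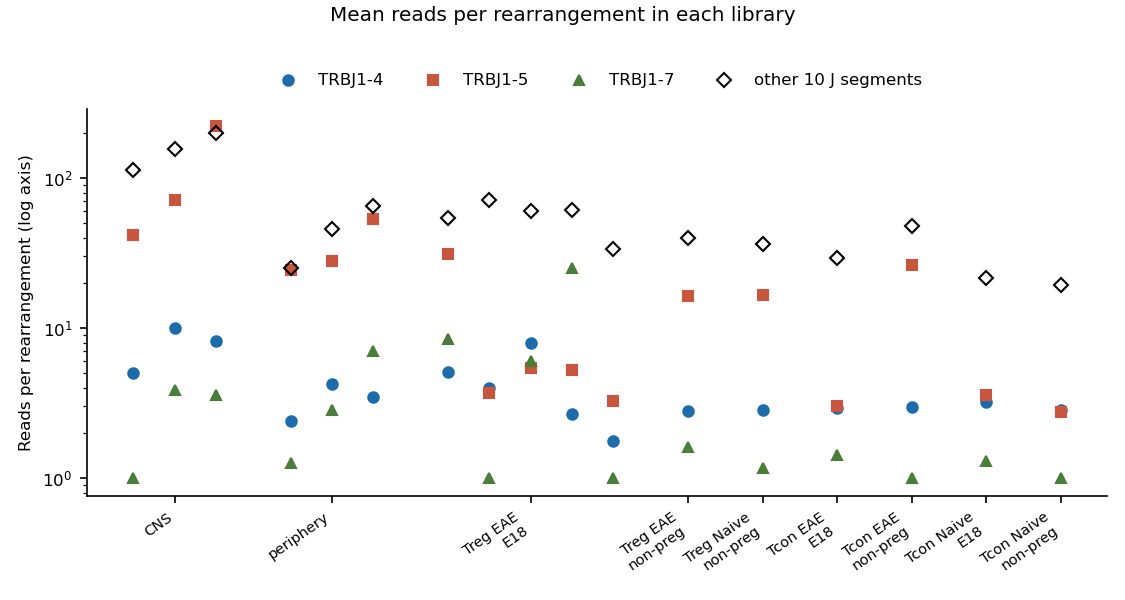
Mean reads per rearrangement (log axis) for TRBJ1-4, TRBJ1-5, TRBJ1-7 and the other 10 J segments together, with 1 point per library and libraries ordered by group. TRBJ1-4 sits between 1.78 and 10 reads in all 17 libraries, below the open diamonds of the other 10 J segments (19.2 to 201), while TRBJ1-5 lies near the diamonds in some libraries and near TRBJ1-4 in others.

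TRBJ1-5 behaved differently from library to library. It held 44972 reads over 1535 rearrangements, a pooled mean of 29.3 reads, which lies within the range of the pooled means of the other J segments. Within a library, however, its reads per rearrangement were below the mean of the other 10 J segments in 16 of 17 libraries, at 0.0516 to 1.10 of it with a median of 0.408. Its share of a library's reads lay between 0.00841% and 0.0217% in 7 libraries (the low band) and between 0.583% and 3.12% in the other 10 (the high band), with no library in between. The 7 libraries held 7 to 24 TRBJ1-5 rearrangements each, and the largest of these had 36 reads. The 10 libraries held 30 to 422 each. No library lacked the segment.

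TRBJ1-7 was the rarest segment. Its 134 rearrangements held 390 reads in all, a mean of 2.91, and 90 of them (67.2%) had 1 read. Of the 134, 115 also held the CDR3 end of TRBJ1-6, as described below. All TRBJ1-7 levels, correlations and tests given here therefore mostly count such entries. Libraries held between 1 and 21 TRBJ1-7 rearrangements. Its highest share of a library's rearrangements was 0.330%, in CNS replicate 2, and its lowest was 0.0101% (95% interval 0.00178% to 0.0572%), in E18 EAE Treg replicate 5.

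**Figure D2:**
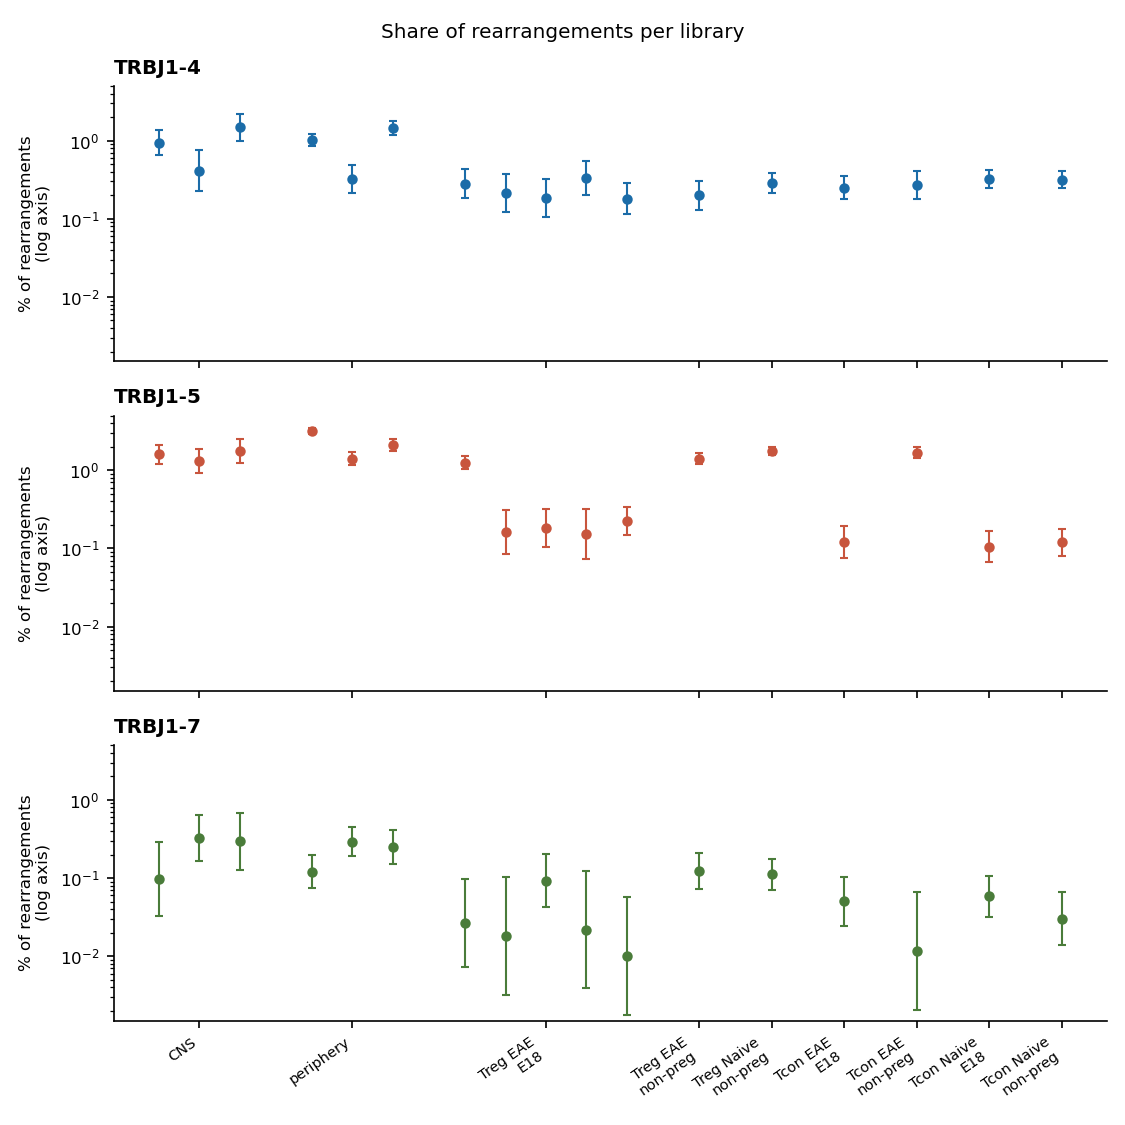
Share of each library's rearrangements (percent, log axis) carrying TRBJ1-4, TRBJ1-5 and TRBJ1-7, with 1 point per library ordered by group and bars giving Wilson 95% intervals (counting error only). TRBJ1-4 is between 0.182% and 1.47%, TRBJ1-5 falls into a low and a high band, and TRBJ1-7 stays at or below 0.330%.

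Some rearrangements of the 3 segments were seen in more than 1 library. The same V segment and CDR3 nucleotide sequence occurred in another library for 18 of 632 TRBJ1-4 (2.85%), 110 of 1535 TRBJ1-5 (7.17%) and 6 of 134 TRBJ1-7 rearrangements (4.48%), and for 11.4% to 18.8% per segment among the other 10. The difference was not tested, and the segments also differ in reads per rearrangement. In the CNS, 54 of 111 TRBJ1-5 rearrangements (48.6%) occurred in another library, as did 47.9% of the rearrangements of the other 10 J segments there. The largest overlap for TRBJ1-5 was between CNS replicate 1 and CNS replicate 3, which had 14 in common (28.6% of the first library's 49 and 46.7% of the second library's 30). Of the 111, 19 had at least 100 times as many reads in another library.

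The levels of the 3 segments across libraries were set beside those of all J segments by rank correlation of the share of rearrangements over 17 libraries. The J segments most like TRBJ1-4 were TRBJ1-7 (Spearman's rho 0.61) and TRBJ1-2 (0.60). Those most like TRBJ1-5 were TRBJ1-7 (0.51) and TRBJ1-2 (0.48), and those most like TRBJ1-7 were TRBJ1-4 (0.61) and TRBJ1-5 (0.51). These values are descriptions over libraries of different depth and of 2 mouse lines, and the shares of all J segments in a library sum to the whole. Mean shares in CNS, periphery, Treg and Tcon were 0.942%, 0.930%, 0.240% and 0.289% for TRBJ1-4. They were 1.56%, 2.22%, 0.734% and 0.503% for TRBJ1-5, and 0.241%, 0.220%, 0.0578% and 0.0376% for TRBJ1-7. All 3 were thus higher on average in the WT libraries, with overlap between single libraries. Mouse line and sort cannot be told apart here, and the difference was not tested.

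The first comparison sets T cells of the CNS, the organ attacked in EAE, against the periphery. TRBJ1-4 made up 0.942%, 0.412% and 1.47% of rearrangements in CNS replicates 1 to 3, against 1.02%, 0.321% and 1.45% in periphery replicates 1 to 3. The 2 tissues overlapped, and replicate 2 was the low library in both. TRBJ1-5 made up 1.59%, 1.32% and 1.77% of rearrangements in the CNS, against 3.17%, 1.41% and 2.09% in the periphery. All 6 libraries were in the high band of TRBJ1-5. The 2 tissues overlapped, and the CNS library was the lower one in each of the 3 same-numbered pairs. TRBJ1-7 made up 0.0975%, 0.330% and 0.294% in the CNS, on 3, 8 and 5 rearrangements, against 0.120%, 0.293% and 0.247% in the periphery, on 16, 21 and 15 rearrangements.

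None of the 3 segments passed the test between CNS and periphery. Over all V and J segments 3 of 34 did (8.82%, TRBV5 and TRBV20 higher and TRBV17 lower in the CNS; edgeR quasi-likelihood test on rearrangement numbers, Benjamini-Hochberg adjusted p under 0.05). The log2 change in the CNS was -0.07 (SE 0.57, adjusted p = 0.992 by edgeR) for TRBJ1-4. With the replicate number as a block the TRBJ1-4 change was -0.05 (SE 0.23, adjusted p = 0.956 by edgeR). The change was -0.58 (SE 0.41, adjusted p = 0.301 by edgeR) for TRBJ1-5, and with the replicate number as a block it was -0.60 (SE 0.25, adjusted p = 0.0734 by edgeR), which did not pass either. Leaving out 1 library moved the TRBJ1-5 change to -0.22 (without periphery replicate 1), -0.39 (without CNS replicate 2) or values down to -0.85 (without periphery replicate 2). The change was 0.05 (SE 0.88, adjusted p = 0.992 by edgeR) for TRBJ1-7, and 0.03 with the block (adjusted p = 0.983 by edgeR). No SE is given for the blocked value, since the one derived from the test did not match its p-value. It was also too small for counts this low, 16 TRBJ1-7 rearrangements in the CNS libraries and 52 in the periphery libraries. Same-numbered CNS and periphery libraries deviated together, and with the replicate number as a block on reads in place of rearrangements TRBJ1-7 was lower in the CNS. Its reads numbered 3, 31 and 18 in the CNS, against 20, 60 and 106 in the periphery, a log2 change of -1.85 (SE 0.27, adjusted p = 0.00124 by edgeR), and it was the 1 segment of 36 called in that fit (2.78%). Of the 106 reads in periphery replicate 3, 84 belonged to the single TRBV15 rearrangement printed above, and without that rearrangement the change was -1.05 (SE 0.50, adjusted p = 0.473 by edgeR). Without the block the reads gave -1.79 (SE 0.83, adjusted p = 0.507 by edgeR). Reads per TRBJ1-5 rearrangement were 41.7, 71.3 and 221 in the CNS, against 24.4, 28.2 and 53.6 in the periphery, while the other 10 J segments were also higher in the CNS, so the ratio to them was 0.368, 0.459 and 1.10 in the CNS, against 0.971, 0.616 and 0.817 in the periphery.

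The second comparison sets Treg, which restrain immune responses, against Tcon in DEREG mice. TRBJ1-4 ran from a low of 0.182% through a median of 0.216% to a high of 0.329% of rearrangements in 7 Treg libraries, against 0.251%, 0.270%, 0.320% and 0.317% in the 4 Tcon libraries. The groups overlapped and the log2 change in Treg was -0.21 (SE 0.30, adjusted p = 0.673 by edgeR). The fit compared Treg with Tcon within each immunization and gestational state. Naive E18 mice gave no Treg library, so their Tcon library added next to nothing to the changes given here. TRBJ1-5 had a low of 0.153%, a median of 0.222% and a high of 1.75% in Treg, against 0.122%, 1.67%, 0.105% and 0.121% in Tcon. Its share of reads was under 0.1% in 4 of 7 Treg and in 3 of 4 Tcon libraries, so both cell types held libraries of both bands. The log2 change was 1.71 (SE 0.97, adjusted p = 0.259 by edgeR) and did not pass, with values of 0.80 to 2.49 when 1 library was left out. Over all segments 4 of 34 passed (11.8%; TRBV12-1 and TRBV30 higher, TRBV31 and TRBV4 lower in Treg). TRBJ1-7 had 42 rearrangements in the 7 Treg libraries and 24 in the 4 Tcon libraries, under the mean of 10 per library that the test required. On reads its log2 change in Treg was 1.64 (SE 1.24, adjusted p = 0.965 by edgeR).

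The third comparison sets pregnant mice at E18 against non-pregnant mice among DEREG libraries. TRBJ1-4 had a low of 0.182%, a median of 0.251% and a high of 0.329% of rearrangements in 7 E18 libraries, against 0.199%, 0.287%, 0.270% and 0.317% in 4 non-pregnant libraries. The log2 change at E18 was 0.03 (SE 0.25, adjusted p = 0.977 by edgeR), and 0 of 34 segments passed (0%; 1 had an unadjusted p under 0.05, and DESeq2 also called 0). TRBJ1-5 was among the 34 fitted and was the 1 with an unadjusted p under 0.05, and since it was singled out with its pattern known, nothing is read from that. TRBJ1-7 had 28 rearrangements in the E18 libraries and 38 in the non-pregnant libraries, too few for this test. On reads its log2 change at E18 was 0.93 (SE 1.01, adjusted p = 0.774 by edgeR).

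For TRBJ1-5 between E18 and non-pregnant mice the values themselves are given as a description. Its share of reads was 0.718%, 0.00841%, 0.0165%, 0.0133% and 0.0217% in E18 EAE Treg replicates 1 to 5, 0.0125% in E18 EAE Tcon and 0.0175% in E18 naive Tcon. Among non-pregnant mice it was 0.583% in EAE Treg, 0.810% in naive Treg, 0.927% in EAE Tcon and 0.0173% in naive Tcon. Thus 6 of 7 E18 libraries and 1 of 4 non-pregnant libraries held under 0.1%, and each state held a library against that order. By rearrangements the same libraries stood apart: 94 TRBJ1-5 rearrangements in E18 EAE Treg replicate 1 against 7 to 22 in the other 4 replicates, and 142 in non-pregnant EAE Tcon against 24 in non-pregnant naive Tcon. The lowest share of any of the other 10 J segments in any of the 17 libraries was 3.03% of rearrangements. The labels name no sequencing run or primer lot, and whether the libraries with little TRBJ1-5 share one was not tested.

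The last comparison sets EAE against naive mice among DEREG libraries. TRBJ1-4 had a low of 0.182%, a median of 0.234% and a high of 0.329% of rearrangements in 8 EAE libraries, against 0.287%, 0.320% and 0.317% in 3 naive libraries. The log2 change in EAE was -0.32 (SE 0.27, adjusted p = 0.744 by edgeR). TRBJ1-5 held under 0.1% of reads in 5 of 8 EAE and 2 of 3 naive libraries, and its log2 change in rearrangements was 1.04 (SE 0.82, adjusted p = 0.744 by edgeR). That value became -0.10 without the non-pregnant EAE Tcon library and 2.19 without the naive Treg library. None of 34 segments passed (0%; 2 had an unadjusted p under 0.05, and DESeq2 also called 0). TRBJ1-7 had 32 rearrangements in EAE and 34 in naive libraries and was not tested on rearrangements. On reads its log2 change in EAE was -0.68 (SE 1.20, adjusted p = 0.919 by edgeR).

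The V segments joined to TRBJ1-4 were not those joined to the other J segments in the same proportions. TRBJ1-4 was found with 21 of 23 V segments, most often TRBV1 (71 rearrangements), TRBV2 (66) and TRBV13-2 (59). TRBV13-2, the mouse Vβ8.2 segment prominent in T cell responses to myelin antigens in EAE, made up 9.34% of TRBJ1-4 rearrangements, against 14.2% of those with the other 10 J segments. Per library its share ran to a low of 0%, a median of 8.33% and a high of 16% with TRBJ1-4, against a median of 14.9% with the other J segments, and it was lower with TRBJ1-4 in 17 of 17 libraries. TRBV1 made up 11.2% of TRBJ1-4 rearrangements, against 6.62% with the other J segments, and it was higher with TRBJ1-4 in 12 of 17 libraries. In a fit of V segment numbers with the library as a block, TRBV13-2 was lower with TRBJ1-4 by a log2 change of -0.71 (SE 0.17, adjusted p = 0.00104 by edgeR) and TRBV1 was higher by 0.76 (SE 0.20, adjusted p = 0.00154 by edgeR). They were the 2 of 21 V segments called (9.52%). TRBV2 gave 0.39 (SE 0.19, adjusted p = 0.205 by edgeR). TRBV13-2 has close paralogs in TRBV13-1 and TRBV13-3, and the sources used here do not say how rearrangements were told apart between them. DESeq2 called TRBV13-2 (log2 change -1.11, adjusted p = 0.00875) and did not call TRBV1 (0.42, adjusted p = 0.443). Among rearrangements with at least 2 reads TRBV13-2 gave -0.54 (adjusted p = 0.143 by edgeR). With TMM scaling, as first planned, TRBV13-2 gave -1.44 (adjusted p = 5.66e-11 by edgeR) and TRBV1 gave 0.067 (adjusted p = 0.791 by edgeR), so the TRBV1 call depends on the scaling. In simulated data both scalings placed unchanged V segments too low, by a mean log2 change of -0.29 with column totals and -0.56 with TMM. That is the direction of the TRBV13-2 change. Other V segments there had been changed 2, 0.5 and 4 fold, which can itself lower the shares of the rest. The size of any such shift in the reported fit is therefore not known.

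**Figure D3:**
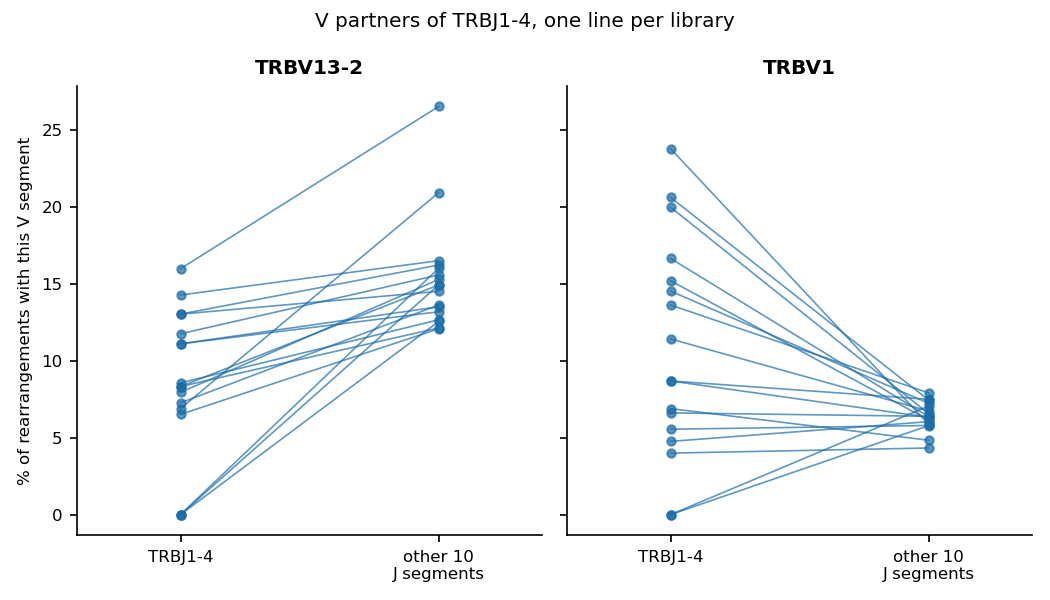
Percent of rearrangements that carry TRBV13-2 (left) or TRBV1 (right) among TRBJ1-4 rearrangements and among those of the other 10 J segments, with 1 line per library. Every TRBV13-2 line is lower at the TRBJ1-4 end (17 of 17), and 12 of 17 TRBV1 lines are higher there; TRBJ1-4 points rest on 10 to 136 rearrangements each.

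TRBJ1-5 was found with 22 of 23 V segments, most often TRBV13-2 (259 rearrangements), TRBV1 (155) and TRBV2 (144). In the 12 libraries with at least 20 TRBJ1-5 rearrangements, 1 of 21 V segments was called (4.76%). TRBV1 was higher with TRBJ1-5 by a log2 change of 0.62 (SE 0.19, adjusted p = 0.0238 by edgeR), at 10.1% of all TRBJ1-5 rearrangements against 6.62% with the other J segments. TRBV1 did not pass by DESeq2 (0.47, adjusted p = 0.146), with TMM scaling (0.42, adjusted p = 0.168 by edgeR) or against the other cluster 1 segments only (0.49, adjusted p = 0.0550 by edgeR). It also missed the threshold when E18 EAE Treg replicate 5 (adjusted p = 0.0523 by edgeR), the non-pregnant EAE Treg library (0.105) or the naive Treg library (0.0673) was left out. TRBV13-2 made up 16.9% with TRBJ1-5, against 14.2% with the other J segments, and did not pass (log2 change 0.19, SE 0.13, adjusted p = 0.296 by edgeR). In simulated data the TRBJ1-5 fit also placed unchanged V segments too low, by a mean log2 change of -0.26. Other V segments had been changed there as well, so the size of any such shift in the reported changes is not known. TRBJ1-7 was found with 18 of 23 V segments, most often TRBV13-2 (24), TRBV2 (14) and TRBV19 (13). These numbers mostly describe the 115 of 134 entries that also held the CDR3 end of TRBJ1-6. V partners of the 19 without it were not counted apart. The V segments favoured by natural killer T cells (TRBV13-2, TRBV29 and TRBV1), another T cell type that a sort could hold, together made up 22.9% of TRBJ1-4, 30.7% of TRBJ1-5 and 29.9% of TRBJ1-7 rearrangements, against 22.8% of those of the other 10 J segments. Their part in the V partner results was not tested.

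The D segments assigned to TRBJ1-4 and TRBJ1-5 were those of the rest of cluster 1. TRBD2, which lies downstream of all TRBJ1 segments, was assigned in 6.65% of TRBJ1-4 and 5.93% of TRBJ1-5 rearrangements. TRBD1 was assigned in 61.6% and 58.6%, and the others had no D assigned. Bases assigned to no segment averaged 3.10 ± 0.69 per TRBJ1-4 rearrangement (SD, n = 17 libraries) and 3.18 ± 0.086 for TRBJ1-1, TRBJ1-2, TRBJ1-3 and TRBJ1-6. The difference was -0.080 bases (SD 0.70), with 8 of 17 libraries above 0, and did not pass a two-sided sign-flip permutation test (p = 0.648).

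The TRBJ1-7 rearrangements had an unusual CDR3. All 134 ended in a histidine codon, and 0 ended in phenylalanine or tryptophan, whereas only 0.830% to 1.55% of the rearrangements of each of the other 10 J segments lacked the cysteine start or the phenylalanine or tryptophan end. The CDR3 exceeded 70 nucleotides in 129 of 134 TRBJ1-7 rearrangements, in 0 of 632 with TRBJ1-4, in 0 of 1535 with TRBJ1-5 and in 7 with the other 10 J segments. Bases assigned to no segment averaged 71.2, against 2.80 to 3.95 for the other J segments.

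**Figure D4:**
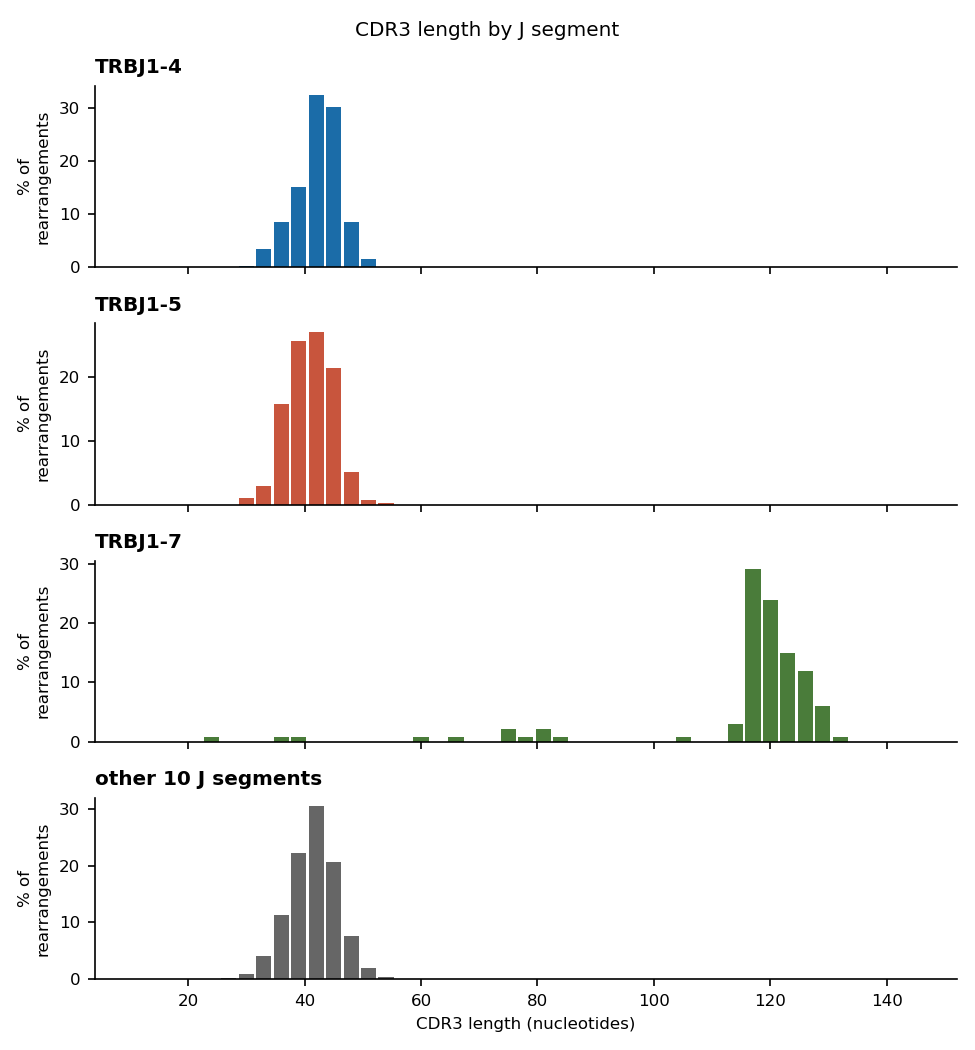
Distribution of CDR3 length in nucleotides (percent of rearrangements in bins of 3 nucleotides) for TRBJ1-4 (632), TRBJ1-5 (1535), TRBJ1-7 (134) and the other 10 J segments. TRBJ1-7 has a median of 120 nucleotides, far to the right of the medians of 39 to 45 of the other J segments.

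These long CDR3s held another J segment upstream of TRBJ1-7. The 14 bases CGCCCCTCTACTTT, the CDR3 end of TRBJ1-6, occurred within 115 of 134 TRBJ1-7 rearrangements (85.8%), and in every one of the 115 exactly 81 bases followed them, identical in 101. The same 14 bases closed 5831 of 6778 TRBJ1-6 rearrangements and lay within 65 rearrangements of J segments other than TRBJ1-6 and TRBJ1-7. The 81 bases were divided with the annotation. The 35 bases before the TRBJ1-7 end were taken as the gap between Trbj1-6 and Trbj1-7, and the bases before them as the rest of TRBJ1-6. Their number was thus set by the annotated gap, and no reference sequence was read. One such rearrangement in CNS replicate 3 and the TRBJ1-6 rearrangement with the same V segment (TRBV13-2) and the same leading bases in the same library are shown, with the TRBJ1-6 CDR3 end in capitals:
TRBJ1-7, 11 reads: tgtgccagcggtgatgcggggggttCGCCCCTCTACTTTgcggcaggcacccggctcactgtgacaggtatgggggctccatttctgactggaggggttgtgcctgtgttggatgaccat
TRBJ1-6, 8888 reads: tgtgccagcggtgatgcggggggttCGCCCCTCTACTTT
The TRBJ1-7 entry is the TRBJ1-6 entry followed by 81 more bases.

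Such a TRBJ1-6 counterpart, with the same V segment and the same bases up to the end of CGCCCCTCTACTTT, was listed in the same library for 108 of the 115 (93.9%) and in another library for 30. The counterpart had more reads in 107 of the 108 and as many in the other, with a median of 99.5 reads and a median of 73.5 times the reads of the TRBJ1-7 entry. Of 6778 TRBJ1-6 rearrangements, the 106 with a TRBJ1-7 counterpart had a median of 105.5 reads, against 13 reads for the other 6672. TRBD2 was assigned in 107 of 134 TRBJ1-7 rearrangements (79.9%, against 5.81% to 10.9% for the other 4 segments of cluster 1), and 105 of the 107 assignments began 15 bases before the TRBJ1-7 start, inside the 35 bases between the 2 segments. The J part was 19 bases long in 131 of 134.

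**Figure D5:**
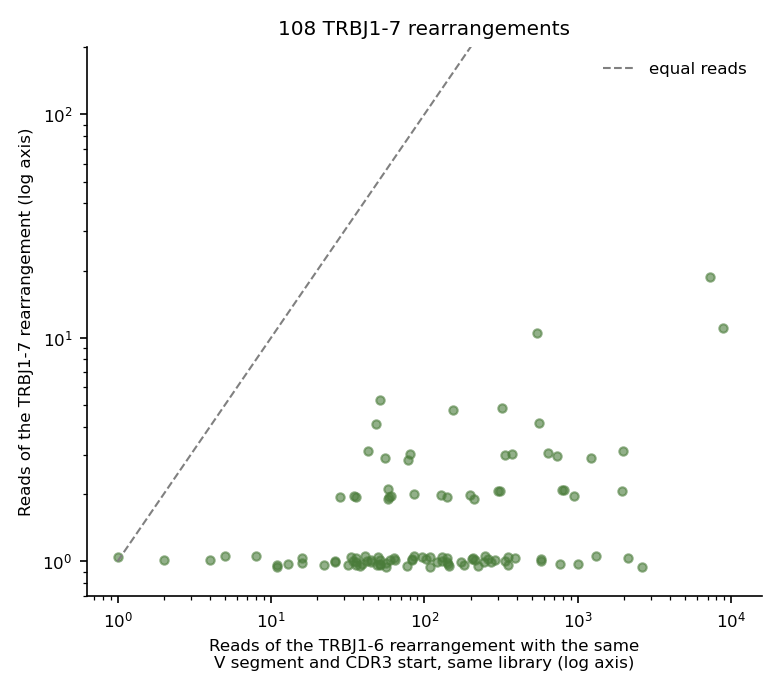
Reads of each of 108 TRBJ1-7 rearrangements against the reads of the TRBJ1-6 rearrangement that shares its V segment and leading CDR3 bases in the same library (both log axes, points moved slightly up or down to show overlaps, dashed line at equal reads). All but 1 point lie below the line, with a median of 99.5 TRBJ1-6 reads.

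The other 19 TRBJ1-7 rearrangements did not hold the exact TRBJ1-6 end, and they carried 183 of the 390 reads. They were not of a single kind. The 35 bases between the 2 segments were present in 124 of the 134, more than the 115 with that end. Some of the 19 therefore also held bases upstream of TRBJ1-7. The CDR3s of the 19 had a median of 81 nucleotides and a range of 24 to 123. In 3 of them the J part differed from 19 bases: the TRBV15 one of 36 nucleotides printed above, with 84 reads in periphery replicate 3; a TRBV20 one of 24 nucleotides with 25 reads, the only TRBJ1-7 rearrangement of E18 EAE Treg replicate 4; and a TRBV3 one of 39 nucleotides with 1 read in non-pregnant naive Tcon. These 3 also ended in histidine, and 2 of them had lengths common among the other 10 J segments (17245 rearrangements of 36 and 33607 of 39 nucleotides), while 24 nucleotides was rare there (98 of 151612). The 2 not yet shown are:
TRBJ1-7 with TRBV20: tgtggtgctccagaGGATGACCAT
TRBJ1-7 with TRBV3: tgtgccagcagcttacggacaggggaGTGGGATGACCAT
Here the capitals mark the bases assigned to TRBJ1-7. Rearrangements without the exact TRBJ1-6 end, of whatever kind, made up 0% to 0.0494% of a library's rearrangements. None was listed in the CNS libraries, where 0 of 3078, 0 of 2426 and 0 of 1698 rearrangements allow a share of up to 0.0975%, 0.124% and 0.177%.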

How the data were processed

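TCRβ rearrangements were amplified from genomic DNA by PCR with a mix of V and J primers, per the labels' protocols. The deposited tables give read counts per CDR3 nucleotide sequence with no normalization, and the fraction of reads, which equals the count over the table's total. They also give V, D and J assignments and positions within the CDR3. The build is mm10, per the submitters' processing notes; the program that assigned segments is not given in the sources used here. All 17 tables hold productive rearrangements only. Of 46 labelled samples, 29 were not analysed here.

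A rearrangement was 1 row. Rearrangements per V and per J segment (mean of at least 10) were fitted apart by edgeR's two-sided quasi-likelihood test after TMM (edgeR 4.0.16, R 4.3.3) and adjusted together. Treg against Tcon, E18 against non-pregnant and EAE against naive had the other factors as terms. Several groups held 1 library, assumed to vary like the others. V partners were tested with the library as a block. Their planned TMM scaling placed unchanged segments too low on simulated data, so column totals were used, for which this shift was smaller but remained. The changes put into the simulated data can themselves produce part of the shift. Same-numbered CNS and periphery libraries deviated together (r = 0.53, 0.78 and 0.67 over 34 segments), so the numbers were taken to pair them; where they come from is not stated. P-values measure the spread between samples. Inserted bases were compared with 100000 sign flips. DESeq2 1.42.0, Python 3.11.15, pandas 2.3.3 and scipy 1.17.1 were also used.

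The members, lists and rule for named items were chosen with earlier results of these data known. The rule named all members, called V partners, the 3 commonest V partners, the 2 J segments most alike, and the rearrangements with the largest share and in most libraries. The TRBJ1-7 structures and the TRBJ1-6 pair were chosen after their values were seen. Alternatives were reads, DESeq2, no TMM, no filter, at least 2 reads, a filter on sequences with at least 100 times the reads in another library, other cluster 1 segments as the V reference, weighting by reads, and each library left out. Added after seeing the data were reads with the replicate block, the same without the largest TRBJ1-7 rearrangement, the planned TMM for V partners and rearrangements with a D assigned.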

Additional observations from a re-analysis of the deposited data

Results flagged for a closer look

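In the 5 libraries of E18 EAE Treg, the one group large enough for a test of single libraries, replicate 1 stood apart for TRBJ1-5 with 1.25% of rearrangements, 0.718% of reads and 30.9 reads per rearrangement, beyond Dixon's 95% limit (0.71 for 5 libraries) in each measure. TRBJ1-5 was singled out with its uneven presence known, so for it the limit is no test and only describes the gap. Replicate 3 was the high library for TRBJ1-7, with 0.0919% of rearrangements, on 6 rearrangements. These were 4 of 15 sets of values examined, several of which share the same rearrangements. Dixon's limit assumes normally distributed values, whereas the TRBJ1-7 shares rest on 1 to 6 rearrangements per library. All 3 segments were also selected on their levels. How many sets chance alone would mark is therefore not known, and the TRBJ1-7 value too is only a description.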

How the results depend on the processing

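Of 34 to 36 segments, the count called between CNS and periphery was 3, and 0 on reads, 7 without TMM, 6 without the filter, 6 with at least 2 reads, 1 with the filter on sequences far larger in another library, 3 with the replicate block, 1 on reads with that block and 0 on the same without the largest TRBJ1-7 rearrangement. The block changed no call of the 3 segments on rearrangements. Leaving out 1 library gave 0 (CNS replicate 1, CNS replicate 3 or periphery replicate 1) to 6 (CNS replicate 2). Between Treg and Tcon the count of 4 became 0 on reads and 7 with at least 2 reads, and 1 (naive Treg) to 8 (E18 EAE Treg replicate 3) with 1 library left out, with 2 without non-pregnant EAE Treg or non-pregnant EAE Tcon. Between E18 and non-pregnant it was 0 to 1 (1 without E18 EAE Treg replicate 1, which was TRBJ1-5 and is a description, as that segment was chosen with its pattern known), and between EAE and naive it was 0 under every alternative.

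For TRBJ1-4 between CNS and periphery the log2 change turned to 0.044 by DESeq2, 0.64 with at least 2 reads and 0.17 with the filter on sequences far larger in another library, and lay between -0.49 and 0.38 with 1 library left out. For TRBJ1-7 it turned to -1.79 on reads, -1.85 on reads with the replicate block and -1.05 without its largest rearrangement, and lay between -0.28 and 0.48 with 1 library left out. TRBJ1-4 between E18 and non-pregnant lay between -0.044 and 0.11, and TRBJ1-5 between EAE and naive between -0.10 and 2.19, with 1 library left out. No adjusted p of these passed, except that on reads with the block. The cause was not tested.

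The V partner calls of TRBJ1-4 numbered 2, with every library left out in turn as well, but 1 by DESeq2 and 9 with TMM, under which the TRBV1 call was lost for TRBJ1-4 and for TRBJ1-5. Those of TRBJ1-5 numbered 1, and 0 by DESeq2, 4 with TMM, 2 with at least 2 reads and 0 against other cluster 1 segments; with 1 library left out they numbered 0 to 3 (0 without E18 EAE Treg replicate 5, non-pregnant EAE Treg or naive Treg; 2 without periphery replicate 1, periphery replicate 2 or E18 EAE Treg replicate 1; 3 without naive non-pregnant Tcon). The difference in inserted bases was 0.015 with at least 2 reads and 0.15 weighted by reads, against -0.080 as reported, and did not pass under any alternative. On reads in place of rearrangements the median share over libraries was 0.0264% for TRBJ1-4, 0.598% for TRBJ1-5 and 0.00420% for TRBJ1-7, against 0.317%, 1.32% and 0.0919% of rearrangements, and with at least 2 reads it was 0.209%, 1.42% and 0.0228%.

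Shares resting on 1 to 30 rearrangements per library, as for TRBJ1-7 and for TRBJ1-5 in its low band, are limited by counting, and several DEREG groups have 1 library. Sequences with far more reads in another library made up 0.141% to 21.0% of a library's rearrangements.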

Other observations

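The other neighbouring J segments were searched for the structure seen in TRBJ1-7, that is, the last 14 CDR3 bases of the upstream segment inside a CDR3 assigned to the next segment downstream. Among 11 neighbouring pairs, 115 of 134 TRBJ1-7 rearrangements held the TRBJ1-6 end across a gap of 35 bases. The one other pair with any was TRBJ2-4 and TRBJ2-5, across a gap of 42 bases, where 3 of 24518 TRBJ2-5 rearrangements, with 4 reads in all and CDR3s of 126 to 144 nucleotides, held the TRBJ2-4 end. The other 9 pairs had 0, among them TRBJ1-4 upstream of TRBJ1-5 (222 bases apart) and TRBJ1-3 upstream of TRBJ1-4 (438 bases apart). The gaps of 35 and 42 bases are the narrowest of the 11, and the search was chosen after the TRBJ1-7 sequences were seen.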
